A study of Homo sapiens with 90 samples.

Results

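A set of 9 long noncoding RNA genes was followed across the whole HepaRG series: NEAT1, MALAT1, HULC, H19 and the small nucleolar RNA (snoRNA) host genes GAS5, SNHG1, SNHG5, SNHG8 and SNHG17. They were chosen by symbol, with earlier results of these data known. All 9 members had a row among the 28307 genes of the count table and were among the 12532 genes tested. HepaRG is a bipotent human liver line: its progenitors can become cells resembling hepatocytes and cells resembling bile duct. BRB-seq, in which barcoded samples are pooled and transcripts are counted by their 3′ ends, was applied to parental cells and to cells stably transduced by a lentivirus to express CYP2D6, a drug-metabolising cytochrome P450. Each of 15 conditions held 2 genotypes and 3 replicates per genotype, 90 libraries in all. Progenitor cells were sampled at days 0, 2, 4, 7 and 14 without DMSO. Freshly differentiated cells, and differentiated cells that had been frozen and thawed, were each sampled without DMSO on days 30 and 32, and on days 32, 37 and 44 in medium containing DMSO, a solvent used to mature this line. Per the protocols the day 30 cells had passed 2 weeks of growth and 2 further weeks in 1.7% DMSO; their label nevertheless gives no DMSO. The labels name 1 parental and 1 transduced genotype and do not say how many transductions lie behind the second, so an effect of the transgene and a difference between cultures cannot be told apart. Nor do the labels say whether replicates were separate cultures, so p-values measure the spread between these libraries, which may be technical.

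NEAT1 and MALAT1 are neighbouring nuclear long noncoding RNAs. NEAT1 is the scaffold of paraspeckles, nuclear bodies that hold RNA-binding proteins such as SFPQ and NONO, and MALAT1 collects in nuclear speckles, where splicing factors are stored. HULC was described as an RNA abundant in liver cancer, and H19 is an imprinted RNA of foetal liver, read from the maternal chromosome beside IGF2. In the host genes the functional product lies in the introns: snoRNAs are cut from the excised introns and guide the modification of ribosomal and spliceosomal RNA. GAS5, SNHG1 and SNHG5 are textbook members of the 5′ TOP class, whose transcripts begin with C and a run of pyrimidines, and the spliced GAS5 and SNHG1 RNAs are removed by nonsense-mediated decay when they are translated.

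On GRCh38.p14 (RefSeq), NEAT1 lies at chr11:65422798-65445540 and MALAT1 at chr11:65497738-65506516, both on the plus strand, and HULC lies at chr6:8652269-8653856. H19 lies at chr11:1995176-2001266 on the minus strand. The hosts are GAS5 at chr1:173863901-173869045 (minus), SNHG1 at chr11:62851978-62855885 (minus), SNHG5 at chr6:85677007-85678733 (minus), SNHG8 at chr4:118278762-118279823 (plus) and SNHG17 at chr20:38420588-38435328 (minus). All 9 are annotated as noncoding genes, so reads from them fall in noncoding exons or introns. Together the 5 hosts contain 28 annotated snoRNA genes, 11 in GAS5, 9 in SNHG1, 5 in SNHG17, 2 in SNHG5 and 1 in SNHG8.

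The start regions of the 5 hosts are shown because a pyrimidine run at the start is what the TOP class is defined by. Each line gives 80 bases of the RefSeq promoter table for GRCh38.p14, 5′ to 3′ on the strand of the gene, with 50 bases before the annotated start and 30 from it on. Capitals mark the longest run of C and T that begins within 10 bases of the start.
GAS5: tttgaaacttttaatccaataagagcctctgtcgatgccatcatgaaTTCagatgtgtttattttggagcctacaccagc
SNHG1: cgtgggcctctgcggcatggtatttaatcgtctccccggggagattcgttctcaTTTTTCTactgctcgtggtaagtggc
SNHG5: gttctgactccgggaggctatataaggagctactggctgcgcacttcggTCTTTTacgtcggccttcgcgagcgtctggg
SNHG8: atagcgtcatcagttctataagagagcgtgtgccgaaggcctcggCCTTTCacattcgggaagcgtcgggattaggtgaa
SNHG17: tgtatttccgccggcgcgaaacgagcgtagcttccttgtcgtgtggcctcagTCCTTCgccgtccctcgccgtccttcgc
These regions cover chr1:173869016-173869095 for GAS5, chr11:62855856-62855935 for SNHG1, chr6:85678704-85678783 for SNHG5, chr4:118278712-118278791 for SNHG8 and chr20:38435299-38435378 for SNHG17. SNHG5 was annotated to start at a C followed by pyrimidines, a run of 5 from the start, and 4.07% of the 35116 promoters in the table begin with C and at least 4 further pyrimidines. SNHG1 began with C in a run of 3 and SNHG8 with a C in a run of 1. The annotated starts of GAS5 and SNHG17 were an A. Among motifs searched on both strands of the 300-base promoters, neither the E-box CACGTG (7.26% of all promoters) nor the cAMP element TGACGTCA (1.85%) occurred in a host. CCAAT, found in 34.6% of all promoters, occurred 3 times in that of GAS5.

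Sequences of 3 hosted snoRNAs are shown because the mature products could not be followed in these libraries. They are those of GENCODE release 29 transcripts, 5′ to 3′, with the C box TGATGA and the D box CTGA in capitals for the first pair and the ACA box in capitals for the third.
SNORD27: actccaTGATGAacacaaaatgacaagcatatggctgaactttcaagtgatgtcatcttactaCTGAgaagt
SNORD50B: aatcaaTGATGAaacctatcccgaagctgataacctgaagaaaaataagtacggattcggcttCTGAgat
SNORA24: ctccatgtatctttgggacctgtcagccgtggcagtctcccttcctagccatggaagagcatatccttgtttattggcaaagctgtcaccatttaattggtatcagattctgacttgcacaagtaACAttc
SNORD27 lies in SNHG1 at chr11:62855012-62855083, SNORD50B in SNHG5 at chr6:85677589-85677659 and SNORA24 in SNHG8 at chr4:118279190-118279320. Of the 28 hosted snoRNA genes 26 had a row in the table, and 0 of the 26 had a count in any library. Of all 568 snoRNA and small Cajal body RNA rows, 562 were without a count. Nothing can therefore be said here about the snoRNAs, and the counts of the host genes are read as those of the host loci. GAS5 shares 964 bases with ZBTB37 on the opposite strand, and SNHG17 shares 4536 bases with LOC124904958, which has no row in the table. Whether the counting used strand is not stated, so reads from shared bases cannot be told apart.

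The protocols do not name the primer of the reverse transcription. BRB-seq as a method primes on poly(A), and both nuclear RNAs have internal A runs, so their annotated transcripts were searched. The longest run in MALAT1 (transcript MALAT1-202, GENCODE release 29) was 13 A, with 359 bases after it, and is printed in capitals with its flanks.
MALAT1: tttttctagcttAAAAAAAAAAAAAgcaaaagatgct
The longest transcript of NEAT1, NEAT1-202, held a run of 22 A at base 18046 of 22743. In the longest transcripts of H19, GAS5, SNHG1, SNHG5, SNHG8 and SNHG17 the longest run was 4 to 6 A. Which priming site the counts of NEAT1 and MALAT1 come from was not tested.

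Of the 90 libraries 87 were used, with totals of 723391 to 3882866 counts (median 1935150); the other 3 held 212, 505 and 10137 counts, and parental progenitor days 2 and 14 and parental fresh day 30 therefore had 2 libraries each. CYP2D6 stood at 0 to 3.74 CPM (the count of a gene divided by the TMM-adjusted library size and multiplied by 1000000) in the 42 parental libraries and at 2.22 to 26.3 CPM in the 45 transduced ones. The summed level of 10 hepatocyte markers ran from a condition median of 3206 CPM at progenitor day 2 to 92486 CPM at fresh day 37, and that of 8 proliferation markers from 132 CPM at thawed day 37 to 1260 CPM at progenitor day 2. Of 8 biliary markers 4 averaged at least 1 CPM, and those below included EPCAM, CFTR and CLDN4; the sum ran from 178 to 500 CPM. Macrophage and leukocyte markers (3 of 7 at 1 CPM or more, 14.1 to 105 CPM in sum, PTPRC, CSF1R, MARCO and CD3E below), endothelial markers (2 of 5, 2.85 to 39.8 CPM, VWF, CDH5 and STAB2 below) and fibroblast markers (6 of 7, 50.5 to 491 CPM, COL1A2 below) were measured in the same way. In such bulk samples fewer cells of a type and less RNA per cell cannot be told apart. In 1 library, transduced progenitor day 4 replicate b, MALAT1 was 895 CPM against 5615 and 4547 CPM in the other 2 of its group; no comparison between conditions described here uses that day, but the shared estimate of spread and the genotype means of progenitors do.

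Over the progenitor days most of the 9 members moved in 1 direction to day 2 and back to day 14. From day 0 to day 2, when plated cells begin to grow, 2 of the 9 rose (SNHG1, SNHG5) and 6 fell (NEAT1, MALAT1, HULC, H19, GAS5, SNHG8), against a background of 30.4% of the 12532 genes called at an adjusted p under 0.05 in either direction (edgeR, Benjamini-Hochberg). From day 2 to day 14, the confluent end of this series, 5 rose (NEAT1, MALAT1, HULC, GAS5, SNHG8) and 3 fell (SNHG1, SNHG5, SNHG17), against 36.2% of all genes. The median log2 fold change of the 9 was −0.80 and then 0.62, and that of all genes −0.08 and 0.09. The comparisons share the day 2 libraries, so opposite signs in the pair are in part built in.

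**Figure D1:**
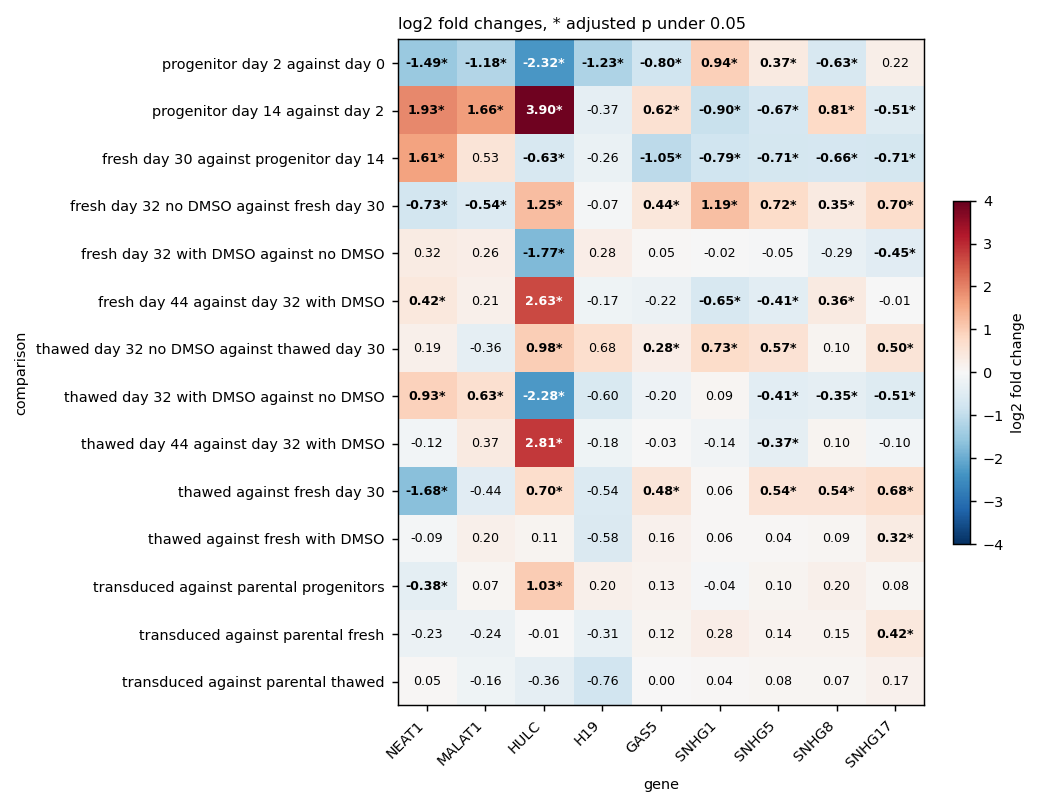
Log2 fold change of the 9 members (columns) in the 14 comparisons between groups (rows); the colour and the printed value are the log2 fold change, and an asterisk marks an adjusted p under 0.05. NEAT1, MALAT1 and HULC fell to progenitor day 2 and then rose, and HULC fell with DMSO at day 32 in both fresh and thawed cells.

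Maturation, replating and DMSO gave further patterns. At fresh day 30, after differentiation, 1 of the 9 was higher than at progenitor day 14 (NEAT1) and 6 were lower (HULC and the 5 hosts), against 22.6% of all genes, with medians of −0.66 for the members and 0.02 for all genes. After replating without DMSO (fresh day 32 against fresh day 30) 6 rose (HULC and the 5 hosts) and 2 fell (NEAT1, MALAT1), against 17.3% of all genes. In thawed cells the same step gave 5 rises (HULC, GAS5, SNHG1, SNHG5, SNHG17) and 0 falls, against 11.8%. With DMSO at day 32, compared with no DMSO on the same day, 2 fell in fresh cells (HULC, SNHG17; background 2.45%), and in thawed cells 2 rose (NEAT1, MALAT1) and 4 fell (HULC, SNHG5, SNHG8, SNHG17; background 7.76%). From day 32 to day 44 with DMSO 3 rose (NEAT1, HULC, SNHG8) and 2 fell (SNHG1, SNHG5) in fresh cells, against 11.5% of all genes, and in thawed cells 1 rose (HULC) and 1 fell (SNHG5), against 9.59%.

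NEAT1 was lowest in growing progenitors and highest in freshly differentiated cells. At progenitor day 0 its 6 libraries ran from 164 to 332 CPM (median 213), at day 2 its 5 libraries lay between 68.7 and 93.0 CPM (median 89.9), and at day 14 the range was 213 to 432 CPM (median 279). The day 2 libraries overlapped neither those of day 0 nor those of day 14. The fall from day 0 to day 2 was −1.49 ± 0.14 on the log2 scale (SE, adjusted p = 4.9e-15) and the rise to day 14 was 1.93 ± 0.14 (adjusted p = 7.8e-20). Hepatocyte markers fell and rose over the same days, with condition medians of 16320, 3206 and 44458 CPM, and proliferation markers went the other way, with medians of 258, 1260 and 162 CPM; their part in the result was not tested.

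At fresh day 30 NEAT1 reached 1418 and 1173 CPM in the parental and 883, 700 and 654 CPM in the transduced libraries. All 5 lay above all progenitor day 14 libraries, and the difference was 1.61 ± 0.14 (adjusted p = 5.1e-16). In thawed cells of the same day NEAT1 was 391, 358 and 358 CPM in parental and 239, 209 and 316 CPM in transduced libraries, all below the fresh ones. The difference, −1.68 ± 0.13 or 3.205-fold lower in thawed cells (adjusted p = 7.1e-17), had the smallest p of all 12532 genes in the comparison of thawed with fresh day 30. It lay between −1.83 and −1.55 under all 12 alternative settings. Hepatocyte markers had condition medians of 66438 CPM thawed and 64525 CPM fresh, and the part of cell composition in the result was not tested.

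Replating without DMSO moved NEAT1 differently in fresh and thawed cells. Fresh cells without DMSO at day 32 held 676, 627 and 598 CPM (parental) and 605, 572 and 488 CPM (transduced), a change from day 30 of −0.73 ± 0.12 (adjusted p = 5.2e-06), with ranges that overlapped only through 1 library at 676 CPM. Thawed cells at day 32 without DMSO held 315 to 376 CPM (median 360), with a change from day 30 of 0.19 ± 0.12 that did not pass the test (adjusted p = 0.35). The difference between the 2 replating effects, thawed minus fresh, was 0.92 ± 0.17 (adjusted p = 0.00087); 1.81% of all genes were called in that test, and NEAT1 was the 1 member among them.

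With DMSO at day 32 the thawed libraries held 708, 594 and 616 CPM (parental) and 807, 686 and 606 CPM (transduced), all above the thawed libraries without DMSO, a rise of 0.93 ± 0.12 (adjusted p = 7e-09). In fresh cells the same contrast was 0.32 ± 0.12 (adjusted p = 0.16). The difference between the DMSO effects, 0.61 ± 0.17, did not pass (adjusted p = 0.22); 0.12% of all genes and 0 of the 9 members passed this edgeR test. At an unadjusted p under 0.05 there were 3 (NEAT1, GAS5, SNHG5), and NEAT1 passed with no filter on low counts, with the compared groups alone and with DESeq2, the 1 member DESeq2 called. The share of all genes at that unadjusted threshold is not given here, so the 3 cannot be read as an excess. From day 32 to day 44 with DMSO NEAT1 rose in fresh cells by 0.42 ± 0.12 (adjusted p = 0.0098), from a range of 636 to 929 CPM (median 686) to 871 to 1155 CPM (median 1005). This call was lost without replicate a and without replicate c of every group, with an adjusted p of up to 0.23. The course was not a steady rise. At fresh day 37 NEAT1 was 412 to 631 CPM (median 470), below every fresh library with DMSO of day 32 and of day 44. No test compared day 37 with either day. Thawed libraries with DMSO held 594 to 807 CPM at day 32, 600 to 910 CPM at day 37 and 455 to 818 CPM at day 44. The thawed change from day 32 to day 44, −0.12, was not called.

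**Figure D2:**
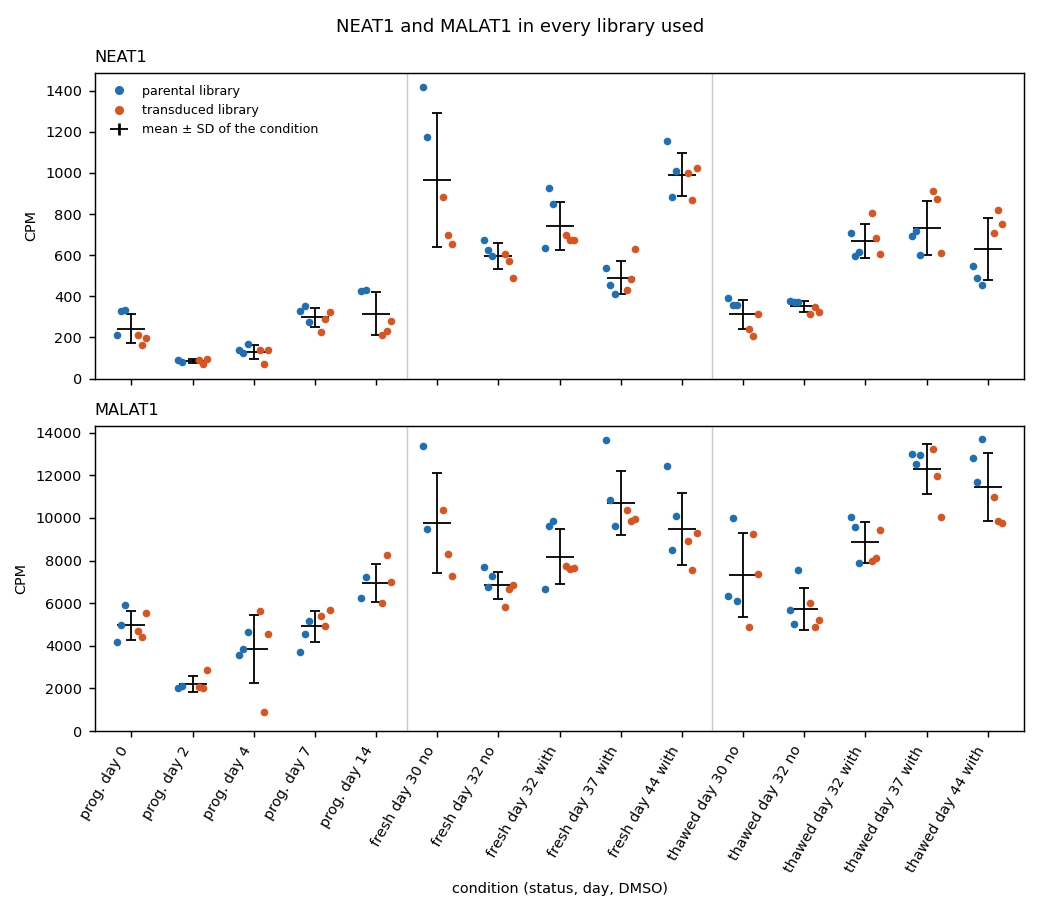
NEAT1 and MALAT1 in CPM (vertical axes) for every library used in the 15 conditions (horizontal axis), with points for libraries coloured by genotype and bars for the mean ± SD of the condition. The 5 fresh day 30 libraries of NEAT1 lie at 654 CPM and above, and the 6 thawed day 30 libraries at 391 CPM and below.

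MALAT1 shared the fall and rise over the progenitor days and had its highest condition mean in thawed cells with DMSO. Its libraries ran from 4166 to 5937 CPM (median 4836) at progenitor day 0, from 2010 to 2856 CPM (median 2060) at day 2 and from 6016 to 8268 CPM (median 7009) at day 14, with no overlap between day 2 and either of the others. The changes were −1.18 ± 0.20 (adjusted p = 3.9e-06) and 1.66 ± 0.22 (adjusted p = 2.9e-09). The further difference between progenitor day 14 and fresh day 30 (7293 to 13390 CPM, median 9504) was 0.53 ± 0.21 and did not pass (adjusted p = 0.061), although it did under 5 of the 12 alternatives, among them leaving out the 1 library transduced progenitor day 4 replicate b (adjusted p = 0.0043). In fresh cells MALAT1 was lower at day 32 without DMSO than at day 30, at −0.54 ± 0.20 (adjusted p = 0.047), a call lost under 5 alternatives, with an adjusted p of up to 0.58 without replicate a and of 0.053 without the 1 library parental progenitor day 14 replicate a. The thawed libraries of day 30 were not called different from the fresh ones, at −0.44 ± 0.20 (adjusted p = 0.13), but were without transduced progenitor day 4 replicate b (adjusted p = 0.017). In thawed cells with DMSO at day 32 it ran from 7872 to 10052 CPM (median 8798), above the range without DMSO of 4894 to 7577 CPM (median 5445). That rise, 0.63 ± 0.19 (adjusted p = 0.025), was lost when replicate a, b or c was left out of every group and with all 90 libraries, with an adjusted p of up to 0.23. The highest mean of the series was that of thawed day 37, where the libraries lay between 10067 and 13242 CPM (median 12748). Thawed day 44 came next, at 9765 to 13686 CPM (median 11327), and the gap between these means was 0.52 times the larger SD.

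The counts of MALAT1 cannot be separated from its antisense partner. TALAM1, annotated over 7205 bases of MALAT1, had 22.8 to 27.0% (median 24.2%) of the MALAT1 count in each of the 87 libraries. Whether the counting used strand is not stated, so reads of the pair cannot be told apart, and the correlation of TALAM1 with MALAT1 over the 30 group means, 0.999, is given only as a description. MALAT1 made up 0.0757 to 1.41% of the counts of a library (median 0.756%).

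Most called genes among the protein partners of these nuclear bodies moved the other way on the progenitor days. Of 18 paraspeckle protein genes 7 rose and 1 fell from day 0 to day 2 (median 0.49), where 13.8% of all genes rose and 16.6% fell, and 2 rose and 10 fell from day 2 to day 14 (median −0.64), where 19.5% rose and 16.7% fell. HNRNPH3, an RNA-binding protein of paraspeckles, rose by 1.25 ± 0.16 and fell by 1.29 ± 0.17. Of 18 nuclear speckle protein genes 6 rose and 1 fell, and then 0 rose and 8 fell, with medians of 0.13 and −0.41, a number of calls in either direction near the shares of all genes called, 30.4 and 36.2%. SRSF3, a splicing factor, changed by 0.81 ± 0.10 and −1.31 ± 0.11. At fresh day 30 against progenitor day 14, where NEAT1 rose, 2 of the paraspeckle genes rose, among them SFPQ by 0.63 ± 0.19, and 4 of the speckle genes rose, among them SRSF5 by 1.22 ± 0.14. Of all genes 10.7% rose there, close to the share of the paraspeckle genes. In thawed against fresh day 30 cells 1 paraspeckle gene was higher and 2 lower, SFPQ at −0.63 ± 0.18 on mean levels of 31.7 and 49.3 CPM, and 4 speckle genes were lower, among them SRRM2 at −0.98 ± 0.24. Of all genes 9.54% were higher and 6.02% lower, and the number of paraspeckle calls was near the 15.6% of all genes called.

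HULC had the widest range of the 9 members, 55.1-fold between the lowest condition mean (1.21 CPM, progenitor day 4) and the highest (66.9 CPM, thawed day 44). It rests on few counts, 0 to 144 in a library. At progenitor day 2 the 5 libraries held 0 to 4.02 CPM (median 1.19), and at day 14 they held 18.6 and 14.3 CPM in parental and 30.6, 24.6 and 34.0 CPM in transduced cells. All day 14 libraries lay above all day 2 libraries, a rise of 3.90 ± 0.33 or 14.9-fold (adjusted p = 4.8e-20) with 0 to 8 counts behind each day 2 value. With so few counts the size of this change is loosely set: on the log2 scale it was 3.10 when every replicate a was left out and 6.04 when every replicate b was, with the call held in both. Without replicate b the 1 parental day 2 library left holds 0 counts, so that fitted value depends on the prior count. The preceding fall from day 0 (1.72 to 15.6 CPM, median 8.68) was −2.32 ± 0.38 (adjusted p = 3.5e-07) with overlapping ranges, and lay at −1.69 without replicate a and at −4.47 without replicate b.

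After differentiation HULC was low at fresh day 30 (10.1 to 20.3 CPM, median 13.5). The difference from progenitor day 14, −0.63 ± 0.23 (adjusted p = 0.033), was lost under 4 of 12 alternatives, with an adjusted p of up to 0.20 and of 0.16 without the 1 library parental progenitor day 14 replicate a. At fresh day 32 without DMSO the libraries held 24.7, 43.1 and 33.4 CPM (parental) and 35.2, 31.8 and 34.9 CPM (transduced), all above day 30, a rise of 1.25 ± 0.22 (adjusted p = 3.3e-06). In thawed cells the same step went from 13.8 to 32.05 CPM (median 23.6) to 33.8 to 62.1 CPM (median 43.0), also without overlap, a rise of 0.98 ± 0.19 (adjusted p = 2.8e-05). At day 30 HULC was higher in thawed than in fresh cells by 0.70 ± 0.22 (adjusted p = 0.021), with overlapping ranges.

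HULC was lower with DMSO than without on day 32 in both kinds of cell. Fresh libraries with DMSO held 11.8, 8.08 and 8.58 CPM (parental) and 9.28, 12.02 and 10.3 CPM (transduced), all below every fresh library without DMSO. HULC was 3.40-fold lower, a log2 change of −1.77 ± 0.22 (adjusted p = 4.8e-10). Thawed libraries held 11.4, 8.15 and 6.48 CPM and 8.78, 11.6 and 10.1 CPM with DMSO against 37.7, 58.2 and 62.1 CPM and 33.8, 42.6 and 43.4 CPM without, 4.87-fold lower and a change of −2.28 ± 0.21 (adjusted p = 6.7e-17). The hepatocyte marker sum overlapped between the fresh groups, at 38389 to 48654 CPM with DMSO and 40307 to 58750 CPM without, and was 30802 to 38854 CPM against 39543 to 57049 CPM in thawed cells; its part in the result was not tested.

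From day 32 to day 44 with DMSO HULC rose again, to 51.4 to 75.2 CPM (median 60.9) in fresh cells and 51.1 to 84.9 CPM (median 64.5) in thawed cells. The rises were 2.63 ± 0.21 or 6.19-fold (adjusted p = 8.3e-20) and 2.81 ± 0.20 or 7.03-fold (adjusted p = 2.9e-23), with no overlap between the days. The hepatocyte sum rose over the same interval, from condition medians of 43675 to 85479 CPM in fresh and from 36064 to 87563 CPM in thawed cells. These 4 changes of HULC at days 32 and 44 passed the test under all 12 alternatives. The DMSO effects on HULC in thawed and fresh cells differed by −0.52 ± 0.31 (adjusted p = 0.90), which did not pass.

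**Figure D3:**
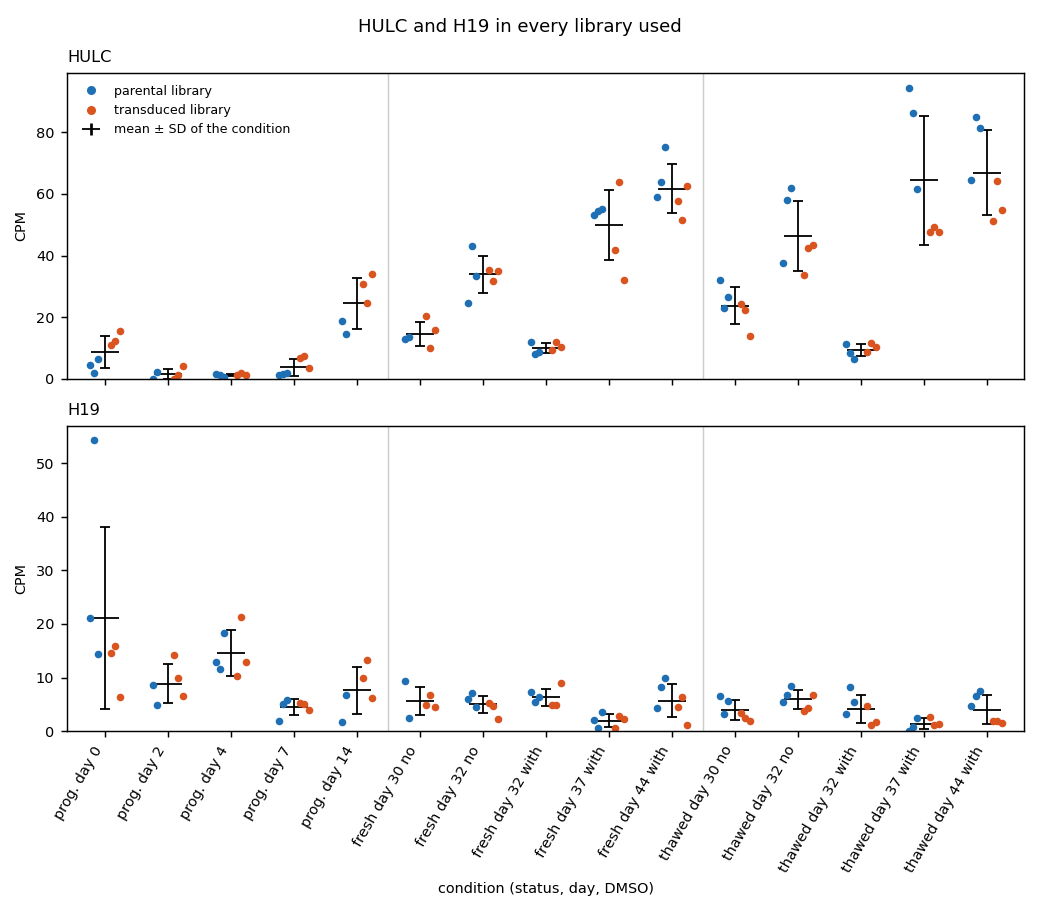
HULC and H19 in CPM (vertical axes) for every library used in the 15 conditions (horizontal axis), with points for libraries coloured by genotype and bars for the mean ± SD of the condition. With DMSO at day 32 the 12 fresh and thawed HULC libraries lie at 12.02 CPM or below, between higher values without DMSO on the same day and at days 37 and 44.

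Among 27 other long noncoding RNAs in the table, 15 were tested. From progenitor day 0 to day 2, 4 rose and 2 fell, and from day 2 to day 14, 4 rose and 5 fell, beside 30.4 and 36.2% of all genes called in either direction. LINC00844 had the sharpest swing, −2.21 ± 0.15 and then 3.78 ± 0.16 (15.4 CPM at day 2 and 216 CPM at day 14), while CYTOR changed by 0.79 ± 0.11 and −1.52 ± 0.12. With DMSO at day 32 CYTOR fell by 0.47 ± 0.11 in fresh and by 0.84 ± 0.11 in thawed cells. From day 32 to day 44 LINC00261, a neighbour of the liver factor gene FOXA2, rose by 1.33 ± 0.21 in fresh and 1.56 ± 0.20 in thawed cells.

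H19 was low throughout, with condition means of 1.39 CPM (thawed day 37) to 21.1 CPM (progenitor day 0), and its highest libraries were progenitors. At day 0 it was 21.2, 54.3 and 14.4 CPM in parental and 14.5, 15.9 and 6.42 CPM in transduced libraries, and at day 2 it was 4.80 to 14.3 CPM (median 8.53). The ranges overlapped. The change of −1.23 ± 0.34 (adjusted p = 0.0022) was the only call for H19 in the 18 comparisons, and it was lost without replicate b of every group, which holds the library at 54.3 CPM, where it was −0.58 (adjusted p = 0.41). H19 lies entirely within the annotated bounds of MRPL23, which is on the opposite strand, so that without strand reads of the pair cannot be told apart. Of 14 tested imprinted genes around H19 and elsewhere, 0 rose and 2 fell from day 0 to day 2, a share below the 30.4% of all genes called. SLC22A18, in the same imprinted domain, fell by 2.47 ± 0.18 and then rose by 2.66 ± 0.19 to day 14. At fresh day 30 against progenitor day 14, 5 rose and 0 fell (10.7% of all genes rose and 11.9% fell), with PEG10, a retrotransposon-derived gene, at 1.59 ± 0.15. After replating without DMSO PEG10 changed by −1.51 ± 0.14.

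The 5 snoRNA hosts did not move as 1 group in progenitors. SNHG1 was 23.8 to 49.6 CPM (median 29.6) at day 0, 57.5 to 71.9 CPM (median 63.5) at day 2 and 28.1 to 41.4 CPM (median 33.0) at day 14. The day 2 libraries stood above those of both other days, with changes of 0.94 ± 0.16 (adjusted p = 6.2e-07) and −0.90 ± 0.17 (adjusted p = 2.6e-06). GAS5, named for its accumulation in growth-arrested cells, went the other way: 896 to 1278 CPM (median 1167), then 517 to 748 CPM (median 621), then 733 to 1228 CPM (median 1093). Its day 2 libraries lay below those of day 0 and overlapped those of day 14, and the changes were −0.80 ± 0.09 (adjusted p = 3.2e-13) and 0.62 ± 0.09 (adjusted p = 1e-08).

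SNHG8 moved in the direction of GAS5, and SNHG5 in that of SNHG1. SNHG8, host of SNORA24, fell from 251 to 391 CPM (median 294) at day 0 to 170 to 226 CPM (median 193) at day 2 and rose to 293 to 394 CPM (median 359) at day 14. These changes, −0.63 ± 0.11 (adjusted p = 2.2e-06) and 0.81 ± 0.12 (adjusted p = 5.6e-09), left no overlap with day 2 on either side. SNHG5, host of the paired U50 snoRNAs, was 820 to 1474 CPM (median 1105) at day 0, 1230 to 1584 CPM (median 1490) at day 2 and 763 to 1091 CPM (median 1000) at day 14. It changed by 0.37 ± 0.10 (adjusted p = 0.0012), with overlap, and by −0.67 ± 0.10 (adjusted p = 1.9e-08), without. SNHG17 changed by 0.22 ± 0.13 (adjusted p = 0.19) and then fell by 0.51 ± 0.14 (adjusted p = 0.0013), from 98.5 to 130 CPM at day 2 to 73.5 to 92.3 CPM at day 14; the fall was lost without replicate a of every group (−0.41, adjusted p = 0.12).

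**Figure D4:**
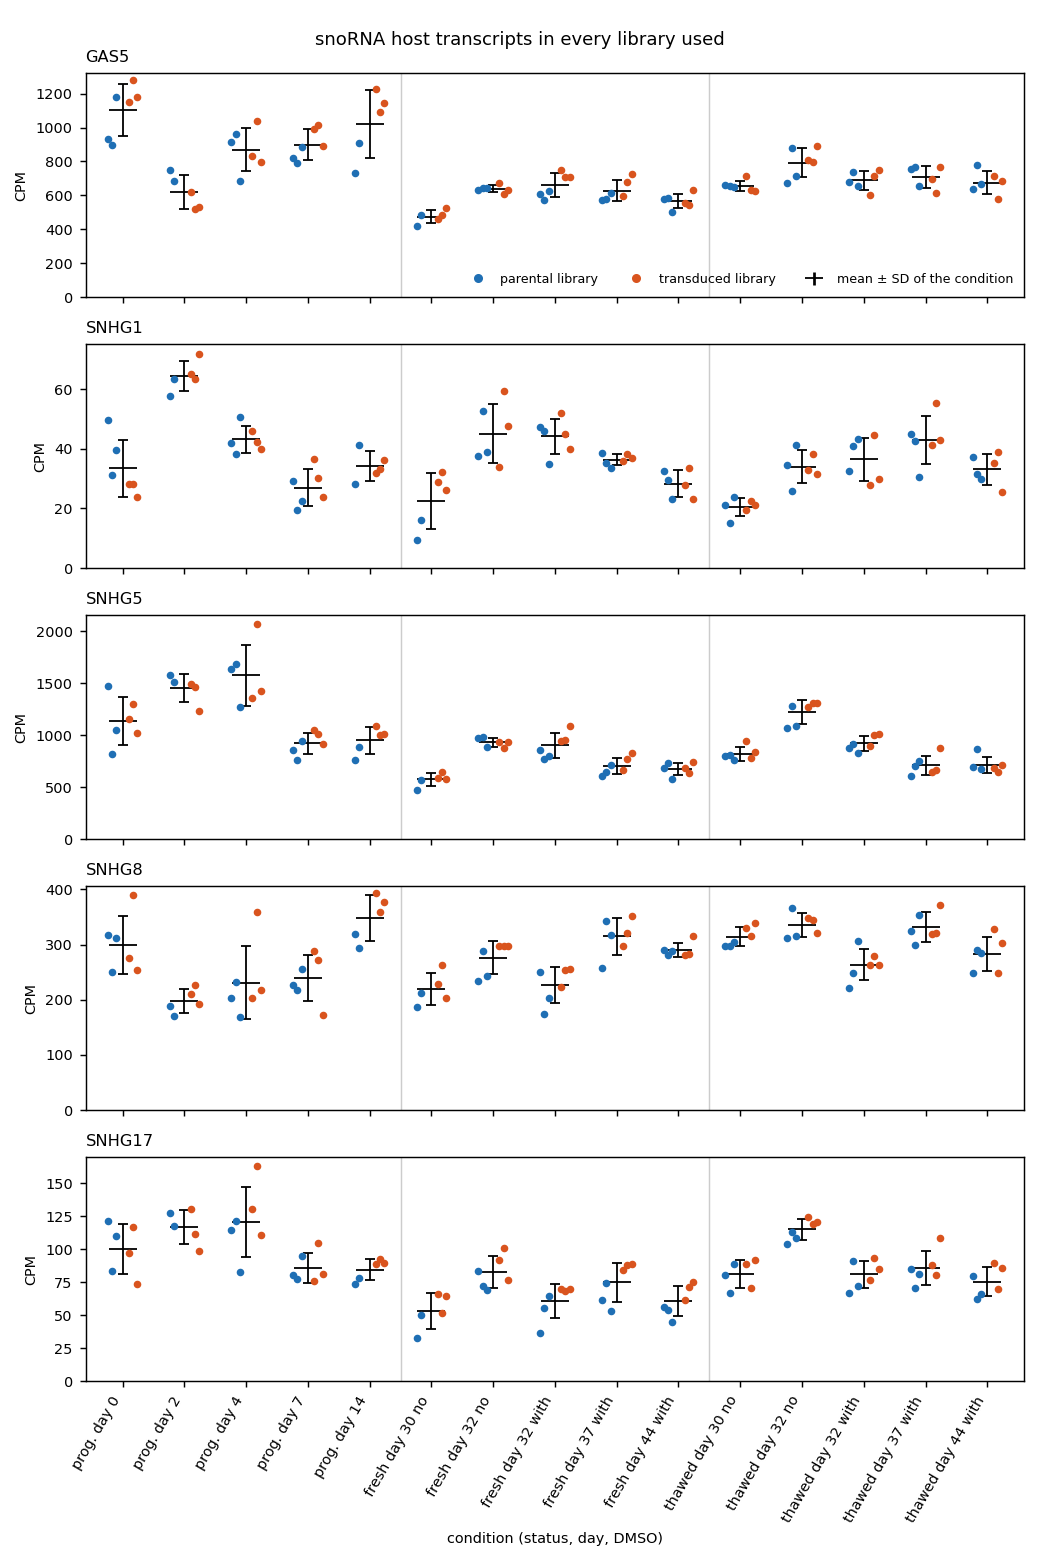
GAS5, SNHG1, SNHG5, SNHG8 and SNHG17 in CPM (vertical axes, each from 0) for every library used in the 15 conditions (horizontal axis), with points for libraries coloured by genotype and bars for the mean ± SD of the condition. At progenitor day 2 SNHG1 has its highest mean over libraries (64.3 CPM) and SNHG8 its lowest (198 CPM), and GAS5, SNHG5 and SNHG17 have their lowest means at fresh day 30.

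All 5 hosts were lower at fresh day 30 than at progenitor day 14. GAS5 held 421 to 526 CPM (median 482), SNHG5 475 to 646 CPM (median 583), SNHG8 188 to 263 CPM (median 212) and SNHG17 32.9 to 66.1 CPM (median 51.5), each below every progenitor day 14 library of that gene, while SNHG1 overlapped at 9.39 to 32.1 CPM (median 26.1). The changes were −1.05 ± 0.09 for GAS5 (adjusted p = 4.9e-17), −0.71 ± 0.10 for SNHG5 (adjusted p = 1.1e-08), −0.66 ± 0.12 for SNHG8 (adjusted p = 4e-06), −0.71 ± 0.14 for SNHG17 (adjusted p = 4.6e-05) and −0.79 ± 0.19 for SNHG1 (adjusted p = 0.00063). Parental fresh day 30 replicate a was the lowest library of the series for GAS5 (421 CPM), SNHG1 (9.39 CPM), SNHG5 (475 CPM) and SNHG17 (32.9 CPM), and the highest for NEAT1 (1418 CPM).

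After replating without DMSO all 5 hosts were higher in fresh cells and 4 in thawed cells. In fresh cells at day 32 SNHG1 was 33.8 to 59.4 CPM (median 43.3), SNHG5 877 to 984 CPM (median 932), GAS5 609 to 672 CPM (median 638) and SNHG17 69.3 to 101 CPM (median 80.0), all above the day 30 libraries. The rises were 1.19 ± 0.18 for SNHG1 (adjusted p = 9.4e-08), 0.72 ± 0.10 for SNHG5 (adjusted p = 4.4e-09), 0.70 ± 0.14 for SNHG17 (adjusted p = 4.2e-05), 0.44 ± 0.09 for GAS5 (adjusted p = 6.5e-05) and, with overlap, 0.35 ± 0.11 for SNHG8 (adjusted p = 0.017). Without replicate a of every group, which leaves 1 parental day 30 library, GAS5, SNHG8 and SNHG17 missed the threshold, with adjusted p of up to 0.099, 0.22 and 0.061. SNHG8 was also lost without replicate c and with all 90 libraries, and SNHG1 and SNHG5 passed under all 12 alternatives.

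In thawed cells the step gave 0.73 ± 0.16 for SNHG1 (adjusted p = 0.00051), 0.57 ± 0.09 for SNHG5 (adjusted p = 3.6e-07), 0.50 ± 0.12 for SNHG17 (adjusted p = 0.0017) and 0.28 ± 0.08 for GAS5 (adjusted p = 0.014). SNHG5 went from 759 to 945 CPM (median 804) to 1068 to 1313 CPM (median 1280) with no overlap. SNHG8 changed by 0.10 ± 0.10 (adjusted p = 0.66). SNHG17 was not called without replicate b of every group (adjusted p = 0.15), nor was GAS5 without replicate b, without replicate c or with all 90 libraries, with an adjusted p of up to 0.31.

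With DMSO at day 32 the hosts that changed were lower. In thawed cells SNHG5 was 824 to 1012 CPM (median 904) with DMSO, below all libraries without it, a change of −0.41 ± 0.09 (adjusted p = 0.00063). SNHG17, at 67.1 to 93.0 CPM (median 80.9) against 104 to 124 CPM (median 116), fell by 0.51 ± 0.12 (adjusted p = 0.0022), and SNHG8 by 0.35 ± 0.10 (adjusted p = 0.023). The calls for SNHG17 and SNHG8 were lost without replicate a, with adjusted p of up to 0.13 and 0.27. In fresh cells SNHG17 changed by −0.45 ± 0.13 (adjusted p = 0.031), with overlapping ranges, and was not called under 4 alternatives, with an adjusted p of up to 0.56. From day 32 to day 44 with DMSO SNHG5 fell by 0.41 ± 0.09 in fresh (adjusted p = 0.00039) and by 0.37 ± 0.09 in thawed cells (adjusted p = 0.0019), and SNHG1 fell in fresh cells by 0.65 ± 0.16 (adjusted p = 0.0018, and 0.056 without replicate a of every group). SNHG8 rose in fresh cells by 0.36 ± 0.11 (adjusted p = 0.012), a call lost under 3 alternatives, with an adjusted p of up to 0.12.

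At day 30 thawed cells were compared with fresh cells. The labels do not say whether both came from the same cultures, so freezing and thawing and a difference between cultures cannot be told apart. Higher in thawed cells were 5 of the 9 members (HULC, GAS5, SNHG5, SNHG8, SNHG17) and lower was 1 (NEAT1), against 15.6% of all genes, with medians of 0.48 for the members and −0.06 for all genes. GAS5 held 624 to 713 CPM (median 651) in thawed libraries, SNHG5 759 to 945 CPM (median 804), SNHG8 298 to 339 CPM (median 309) and SNHG17 66.5 to 91.6 CPM (median 84.5), each above all fresh libraries of the day. The differences were 0.48 ± 0.09 (adjusted p = 2.4e-05), 0.54 ± 0.10 (adjusted p = 1.2e-05), 0.54 ± 0.11 (adjusted p = 0.00016) and 0.68 ± 0.14 (adjusted p = 0.00012). Without replicate a of every group, which leaves out the parental fresh library with the lowest host values, none of these 4 and not HULC passed, with adjusted p of up to 0.089, 0.053, 0.051, 0.077 and, for HULC, which was also lost without replicate b, 0.22; NEAT1 still did. Thawed and fresh cells were also compared on the mean of days 32, 37 and 44 with DMSO. NEAT1 was not called there, at −0.09, but its difference changed direction between days. At day 37 it was 600 to 910 CPM in thawed and 412 to 631 CPM in fresh libraries. At day 44 it was 455 to 818 CPM in thawed and 871 to 1155 CPM in fresh libraries, without overlap. The single days were not tested. On the mean of the days, 1.17% of all genes and 1 member differed. The member was SNHG17, higher in thawed cells by 0.32 ± 0.07 (adjusted p = 0.0073) at mean levels of 80.6 and 65.4 CPM, with overlapping ranges. That call was lost without replicate a and without replicate c, with an adjusted p of up to 0.40.

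Among other genes that carry snoRNAs, most of those called moved in the direction of SNHG1 and SNHG5. Of all genes 13.8% rose and 16.6% fell to progenitor day 2, 19.5 and 16.7% to day 14, 10.7 and 11.9% at fresh day 30, and 9.53 and 7.81% after fresh replating. Of 18 tested other noncoding hosts 7 rose and 2 fell from progenitor day 0 to day 2 (median 0.33), 0 rose and 6 fell from day 2 to day 14 (median −0.27), 0 rose and 8 fell at fresh day 30 (median −0.56) and 8 rose and 0 fell after fresh replating without DMSO (median 0.53). DANCR, a host on the list, was 384 CPM at progenitor day 14, 154 CPM at fresh day 30 and 334 CPM at fresh day 32 without DMSO, changes of −1.32 ± 0.12 and 1.12 ± 0.11. SNHG3 rose by 0.77 ± 0.13 to progenitor day 2 and by 1.10 ± 0.14 and 1.01 ± 0.13 after fresh and thawed replating. Of 35 protein-coding hosts 16 rose and 3 fell to day 2 (median 0.26), 2 rose and 21 fell to day 14 (median −0.33), 1 rose and 19 fell at fresh day 30 (median −0.36), and 19 rose and 0 fell after fresh replating (median 0.37). With DMSO on day 32 in thawed cells 0 of them rose and 13 fell, where 5.35% of all genes fell. NOP56, which is both a host and a core protein of box C/D particles, changed by 1.03 ± 0.13 to day 2 and by −1.19 ± 0.14 to day 14.

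Of 18 snoRNP and nucleolar protein genes 7 rose and 1 fell to progenitor day 2, 1 rose and 11 fell to day 14, and 5 rose and 1 fell after fresh replating without DMSO, beside 30.4, 36.2 and 17.3% of all genes called in either direction. NPM1, the abundant nucleolar protein nucleophosmin, changed by 0.87 ± 0.10 and −1.01 ± 0.11 on the progenitor days. The 1 fall after fresh replating was that of MYC, the growth-driving transcription factor, at −2.35 ± 0.23, at 43.1 CPM on day 30 and 8.29 CPM on day 32, and NHP2, a core protein of box H/ACA particles, rose by 0.92 ± 0.11. Of 17 nonsense-mediated decay factors 3 rose and 1 fell to day 2 and 2 rose and 4 fell to day 14, shares at or below the 30.4 and 36.2% of all genes. RBM8A, part of the exon junction complex, changed by 1.11 ± 0.11 and −1.36 ± 0.12 on the progenitor days.

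Levels were ordered differently from member to member, and many neighbouring conditions in an order differed by less than the spread of their libraries. A condition mean here is the mean of its 2 genotype means, and the SD is that over all libraries of the condition. For NEAT1 the order from the lowest was progenitor day 2, day 4 and then day 0, and the gaps after the first and second exceeded the larger SD of the neighbours by 1.40 and 1.59 times. From there up, NEAT1 stood at 299 CPM at progenitor day 7, 312 CPM at thawed day 30, 335 CPM at progenitor day 14 and 351 CPM at thawed day 32 without DMSO, with gaps below the SD. Next came fresh day 37 at 491 CPM and fresh day 32 without DMSO at 594 CPM, each above its lower neighbour by more than the SD. Thawed cells with DMSO at days 44, 32 and 37 (629, 669 and 734 CPM) and fresh cells with DMSO at day 32 (743 CPM) did not differ between neighbours beyond it, and fresh days 44 and 30 stood highest, 2.11 SD above. For HULC the order ran from progenitor days 4, 2, 7 and 0 (1.21, 1.40, 3.60 and 8.53 CPM) through both day 32 groups with DMSO (9.40 CPM thawed, 10.01 CPM fresh) to fresh day 30 (14.3 CPM), progenitor day 14 (23.1 CPM) and thawed day 30 (23.6 CPM). Above these were day 32 without DMSO (33.8 CPM fresh, 46.3 CPM thawed), fresh days 37 and 44 (50.05 and 61.7 CPM) and thawed days 37 and 44 (64.5 and 66.9 CPM), the last 3 closer together than their SD. For MALAT1 only the gaps above progenitor day 2 and above thawed day 32 without DMSO exceeded the SD. For GAS5, ranging 2.34-fold from fresh day 30 to progenitor day 0, the gap above the lowest condition was the only 1 larger than the SD. SNHG8 had the narrowest range, 1.75-fold, and SNHG17, SNHG5, SNHG1, MALAT1, NEAT1 and H19 had ratios of highest to lowest condition mean of 2.36, 2.79, 3.10, 5.62, 12.1 and 15.3.

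Over the 30 group means, taken from the same libraries for every gene, NEAT1 and MALAT1 had a Pearson correlation of log2 CPM of 0.886, MALAT1 and HULC 0.814, and SNHG5 and SNHG17 0.835. SNHG5 ran against NEAT1 (−0.847) and MALAT1 (−0.864). With the hepatocyte marker sum the correlation was 0.924 for HULC, 0.927 for MALAT1, 0.836 for NEAT1, 0.568 for SNHG8, −0.651 for SNHG17 and −0.829 for SNHG5, and with the proliferation sum it was 0.707 for SNHG5, −0.562 for NEAT1, −0.715 for HULC and −0.743 for MALAT1. With the fibroblast and stellate sum it was 0.788 for GAS5, the strongest of the 6 lists for that gene, 0.756 for SNHG5, 0.707 for H19, −0.719 for NEAT1 and −0.753 for MALAT1, and with the macrophage and leukocyte sum 0.813 for HULC, 0.772 for MALAT1 and 0.729 for NEAT1. For GAS5 the correlation with the proliferation sum was −0.042. These correlations are descriptions over 30 groups that follow 1 course of maturation. Among 4182 other genes averaging 20 CPM or more, the patterns most like that of HULC were those of APOC1 (0.970), HSD17B6 (0.960) and PON1 (0.953), all genes of hepatocyte metabolism. The nearest to SNHG5 were RPLP0 (0.964), HNRNPA1 (0.960) and PTMA (0.949), to SNHG17 NHP2 (0.925), NOP16 (0.923) and RMND5B (0.912), and to SNHG1 SNHG3 (0.828), CNOT7 (0.807) and GOSR2 (0.774). For NEAT1 they were ZBTB16 (0.914), TMEM245 (0.908) and ILRUN (0.905), for MALAT1, after TALAM1, CYP3A5 (0.958) and DHTKD1 (0.947), for GAS5 SERF2 (0.907), UQCRB (0.880) and COX6B1 (0.876), for SNHG8 TMEM177 (0.790), CHMP2A (0.790) and TMEM134 (0.789), and for H19 PLIN3 (0.764), NPR3 (0.755) and SLC39A1 (0.740).

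Few members differed between transduced and parental cells. In progenitors, over the 5 days, NEAT1 was lower and HULC higher in transduced cells, against a background of 1.57% of all genes. HULC was 4.31, 1.72 and 6.50 CPM in parental and 10.9, 12.2 and 15.6 CPM in transduced cells at day 0, and 1.13, 1.36 and 1.81 CPM against 6.51, 7.46 and 3.33 CPM at day 7. The genotypes did not overlap on days 0, 7 and 14 and overlapped on days 2 and 4, and the transduced mean was higher on 5 of 5 days. The hepatocyte marker sum was also higher in transduced cells at day 0, with 18453 to 23062 CPM against 10199 to 14186 CPM, and at day 7, with 17788 to 20228 CPM against 10989 to 11764 CPM. It overlapped between the genotypes at days 2, 4 and 14, and its part in the result was not tested. The mean difference for HULC was 1.03 ± 0.24 (adjusted p = 0.0081) on levels of 10.3 and 4.83 CPM; it was lost without replicate a or c and with only the compared groups in the fit, with an adjusted p of up to 0.22. NEAT1 differed by −0.38 ± 0.08 (adjusted p = 0.0026) on mean levels of 182 and 253 CPM. The transduced mean of NEAT1 was lower on 5 of 5 days, by very unequal amounts. The log2 differences ran from −0.83 ± 0.19 at day 14 to −0.19 ± 0.17 at day 7 and −0.01 ± 0.20 at day 2. At day 14 NEAT1 was 424 and 432 CPM in parental and 213, 233 and 279 CPM in transduced cells. This call was lost without replicate b of every group (−0.28, adjusted p = 0.31).

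In fresh cells SNHG17 was the 1 member called, against 3.77% of all genes. It was 32.9 and 49.8 CPM in parental and 66.1, 51.5 and 64.8 CPM in transduced cells at day 30, and 56.1, 53.9 and 44.6 CPM against 61.6, 71.6 and 75.3 CPM at day 44, with no overlap on either day. The mean difference over the 5 conditions was 0.42 ± 0.08 (adjusted p = 0.0003), lost without replicate a of every group (0.36, adjusted p = 0.11). NEAT1, at −0.23 ± 0.08 (adjusted p = 0.075), passed without transduced progenitor day 4 replicate b (adjusted p = 0.028). In the same comparison 6 of 35 protein-coding hosts, 2 of 18 other noncoding hosts and 4 of 18 snoRNP and nucleolar protein genes were higher and 0 were lower. SNHG1 was not called over the 5 fresh conditions. By condition, its genotype difference was 1.12 ± 0.29 at fresh day 30 and between −0.014 and 0.12 in the other fresh conditions. In thawed cells 2.65% of all genes and 0 of the 9 members were called. At an unadjusted p under 0.05 there were 3, HULC at −0.36 ± 0.12, H19 at −0.76 ± 0.29 and SNHG17 at 0.17 ± 0.08, and DESeq2 called 1 of them at an adjusted p under 0.05, HULC. The share of all genes at that unadjusted threshold is not given here either, so the 3 cannot be read as an excess.

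**Figure D5:**
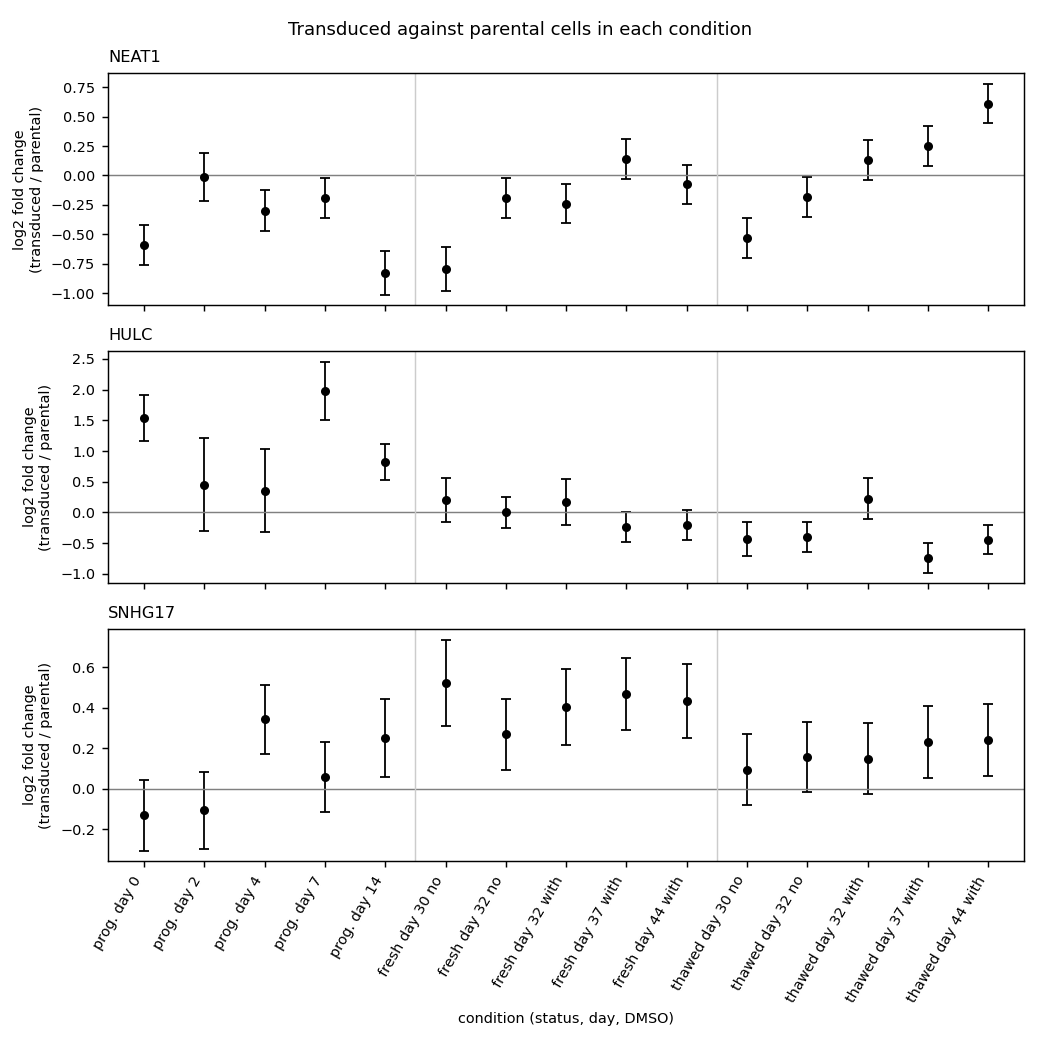
Log2 fold change of transduced against parental cells (vertical axes) for NEAT1, HULC and SNHG17 in each of the 15 conditions (horizontal axis), as points with bars of 1 SE and a line at 0. HULC lies above 0 on all 5 progenitor days, and SNHG17 in all 5 fresh and all 5 thawed conditions.

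The genotype effect itself differed between states for HULC and NEAT1. The HULC difference was smaller in fresh cells than in progenitors, a difference of −1.04 ± 0.28 (adjusted p = 0.023), where 1.47% of all genes and 1 member were called. In thawed cells the transduced mean of HULC was higher in 1 of 5 conditions, with log2 differences of −0.74 to 0.23. The genotype difference of HULC there was below that in progenitors by 1.39 ± 0.27 (adjusted p = 0.00026). For NEAT1 the genotype difference was 0.44 ± 0.11 higher in thawed cells than in progenitors (adjusted p = 0.013). HULC and NEAT1 were the 2 members called in that test, against 2.09% of all genes. By condition, NEAT1 in thawed cells went from −0.53 ± 0.17 at day 30 to 0.61 ± 0.17 at day 44, where it was 547, 491 and 455 CPM in parental and 710, 818 and 751 CPM in transduced cells. HULC at thawed day 37 was 94.5, 86.2 and 61.5 CPM in parental and 47.7, 49.3 and 47.5 CPM in transduced cells. The genotypes did not overlap in either case. The hepatocyte marker sum was lower in the same transduced libraries, at 60399 to 78790 CPM against 84474 to 106267 CPM at thawed day 37 and 60925 to 73995 CPM against 101132 to 110997 CPM at thawed day 44; its part in the result was not tested. The transduced mean of SNHG8 was the higher in all 5 conditions of each of the 3 states, by log2 differences of 0.03 to 0.36, but its genotype difference did not pass in any of the 3 states with all replicates. Both HULC differences and that of NEAT1 were lost when some replicate letter was left out of every group, with adjusted p of up to 0.39, 0.062 and 0.54.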

How the data were processed

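The authors deposited a table of raw counts per gene for 90 libraries, whole numbers not scaled between libraries, with gene symbols per the file headers. Per the labels' protocols, 10 ng of total RNA was reverse transcribed with template switching, amplified and tagmented. Per the submitters' processing notes, BWA 0.7.4.4 was used, and hg38 and mm10 are the builds listed, without their roles. The counting rule, strand, use of molecular identifiers and annotation are not given in the sources used here. Of 28307 symbols 27200 (96.1%) were found in a RefSeq gene table for GRCh38.p14, which gave positions.

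The deposited counts were fitted with edgeR 4.0.16 (R 4.3.3), with 1 mean for each of 30 groups over 87 libraries (TMM scaling, filterByExpr, robust quasi-likelihood, 57 residual degrees of freedom, common dispersion 0.0430). The 3 libraries under 0.25 times the median total were left out. A call required an adjusted p under 0.05 (Benjamini-Hochberg, 12532 genes) in 14 comparisons between groups and 4 differences of effects. CPM, log2 and fold values were computed here. Depth limits HULC and H19 most, where single libraries hold few counts. Named were the 9 members and, from each fixed list and comparison, at most the 3 called genes with the smallest p and a mean of at least 5 CPM; not all are given, and some list members are not reported here by name. Likeness was the Pearson correlation of group mean log2 CPM (prior count 1). The members and lists were chosen with earlier results of these data known. The lists were other noncoding snoRNA hosts, protein-coding snoRNA hosts, snoRNP and nucleolar proteins, other long noncoding RNAs, paraspeckle proteins, nuclear speckle proteins, imprinted genes and nonsense-mediated decay factors, with marker lists for cell types.

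The fit was tested on simulated data for progenitor day 14 against day 2 with 12532 genes, where it recovered 28 of 35 genes changed 2-fold at 20 CPM or more, 44 of 100 changed 2-fold at any level and 10 of 100 changed 1.5-fold, with 3 of 12332 unchanged genes called. Each simulated gene had 1 mean over all groups, and 200 genes were changed, at day 14 only. In the data 36.2% of genes were called in this comparison, so these rates need not hold there.

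Alternatives were RLE scaling, a block for the replicate letter, no filter on low counts, a minimum mean count of 10, dropping in turn every replicate a, every b and every c, all 90 libraries, the compared groups alone, leaving out parental progenitor day 14 replicate a, DESeq2 1.42.0 and, chosen after seeing the data, leaving out transduced progenitor day 4 replicate b.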

Additional observations from a re-analysis of the deposited data

Results flagged for a closer look

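In 4 tests of a difference between effects a member passed at an adjusted p under 0.05 (edgeR). The HULC difference between transduced and parental cells was smaller in fresh cells than in progenitors, with a log2 difference of −1.04 ± 0.28 (adjusted p = 0.023). In thawed cells, where the transduced mean was higher in 1 of 5 conditions, the log2 difference from progenitors was −1.39 ± 0.27 (adjusted p = 0.00026). The NEAT1 difference between genotypes was higher in thawed cells than in progenitors by 0.44 ± 0.11 (adjusted p = 0.013). The NEAT1 change on replating without DMSO was higher in thawed than in fresh cells by 0.92 ± 0.17 (adjusted p = 0.00087). Of the 4, that last result passed under all 12 alternatives.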

How the results depend on the processing

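Of 65 results of members that were called, 37 kept sign and call under each of the 12 alternatives, 28 lost the call under at least 1 and 0 changed sign; of 97 not called, 14 gained a call under at least 1 and 34 changed sign. The causes were not tested. Leaving out every replicate a, every b, every c, parental progenitor day 14 replicate a or transduced progenitor day 4 replicate b, the number of members called ran from 4 to 8 for fresh day 32 no DMSO against fresh day 30 (with all, 8), from 1 to 2 for fresh day 32 with DMSO against no DMSO (with all, 2), from 2 to 5 for fresh day 44 against day 32 with DMSO (with all, 5), from 3 to 5 for thawed day 32 no DMSO against thawed day 30 (with all, 5), from 3 to 6 for thawed day 32 with DMSO against no DMSO (with all, 6), from 1 to 7 for thawed against fresh day 30 (with all, 6), from 0 to 2 for thawed against fresh with DMSO (with all, 1), from 1 to 2 for transduced against parental progenitors (with all, 2), from 0 to 2 for transduced against parental fresh (with all, 1), from 0 to 1 for genotype difference fresh minus progenitor (with all, 1) and from 1 to 2 for genotype difference thawed minus progenitor (with all, 2). With all 90 libraries it was 1 for fresh day 32 with DMSO against no DMSO. With a mean count of at least 10 it was 2 for thawed against fresh with DMSO, and with no filter on low counts 2 for transduced against parental fresh and 1 for the DMSO difference. With only the compared groups in the fit it was 2 for thawed against fresh with DMSO, 1 for the genotypes in progenitors, 2 in fresh and 1 in thawed cells and 2 for the DMSO difference. DESeq2 gave 2 for thawed against fresh with DMSO, 2 and 1 for the genotypes in fresh and thawed cells and 1 for the DMSO difference.

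The uncalled log2 fold changes that changed sign when libraries were left out had these ranges. For progenitor day 14 against day 2 they were −1.32 to 0.38 for H19. For fresh day 30 against progenitor day 14 they were −1.14 to 0.81 for H19. For fresh day 32 no DMSO against fresh day 30 they were −0.51 to 0.30 for H19. For fresh day 32 with DMSO against no DMSO they were −0.069 to 0.53 for H19 and −0.25 to 0.14 for SNHG1. For fresh day 44 against day 32 with DMSO they were −0.62 to 0.062 for H19 and −0.10 to 0.084 for SNHG17. For thawed day 32 with DMSO against no DMSO they were −0.070 to 0.20 for SNHG1. For thawed day 44 against day 32 with DMSO they were −0.32 to 0.13 for H19, −0.084 to 0.0041 for GAS5 and −0.27 to 0.083 for SNHG17. For thawed against fresh day 30 they were −0.078 to 0.45 for SNHG1. For thawed against fresh with DMSO they were −0.15 to 0.013 for NEAT1 and −0.0084 to 0.12 for SNHG1. For transduced against parental progenitors they were −0.067 to 0.21 for MALAT1, −0.047 to 0.41 for H19, −0.11 to 0.0076 for SNHG1 and −0.027 to 0.16 for SNHG17. For transduced against parental fresh they were −0.063 to 0.024 for HULC. For transduced against parental thawed they were −0.072 to 0.082 for GAS5 and −0.16 to 0.14 for SNHG1. For genotype difference fresh minus progenitor they were −0.080 to 0.035 for GAS5, −0.056 to 0.17 for SNHG5 and −0.16 to 0.12 for SNHG8. For genotype difference thawed minus progenitor they were −0.14 to 0.17 for SNHG1, −0.13 to 0.11 for SNHG5, −0.25 to 0.033 for SNHG8 and −0.019 to 0.21 for SNHG17. For replating difference thawed minus fresh they were −0.19 to 0.59 for MALAT1, −0.33 to 0.026 for GAS5 and −0.36 to 0.037 for SNHG5. For DMSO difference thawed minus fresh they were −0.21 to 0.45 for SNHG1, −0.14 to 0.046 for SNHG8 and −0.15 to 0.11 for SNHG17. For transduced against parental thawed, GAS5 was −0.016 with RLE scaling, −0.0013 with no filter on low counts, −0.0091 with mean count of at least 10, −0.0027 with only the compared groups in the fit and −0.016 with DESeq2. For genotype difference fresh minus progenitor, GAS5 was 0.0024 with mean count of at least 10. For genotype difference fresh minus progenitor, SNHG5 was −0.0021 with all 90 libraries in the fit.

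Numbers of genes called over all genes moved by over 1.5 times when replicates were left out. The most and fewest calls among such settings, after the count with all libraries, were 3808, then 2377, for progenitor day 2 against day 0, 2836, then 1523 to 1765, for fresh day 30 against progenitor day 14, 2173, then 901, for fresh day 32 no DMSO against fresh day 30, 307, then 153 to 202, for fresh day 32 with DMSO against no DMSO, 1438, then 919, for fresh day 44 against day 32 with DMSO, 1484, then 879 to 947, for thawed day 32 no DMSO against thawed day 30, 973, then 445 to 638, for thawed day 32 with DMSO against no DMSO, 1202, then 770, for thawed day 44 against day 32 with DMSO, 1949, then 554 to 1245, for thawed against fresh day 30, 146, then 39 to 64, for thawed against fresh with DMSO, 197, then 71 to 118, for transduced against parental progenitors, 473, then 154 to 267, for transduced against parental fresh, 332, then 141 to 186, for transduced against parental thawed, 184, then 60 to 99, for genotype difference fresh minus progenitor, 262, then 87 to 152, for genotype difference thawed minus progenitor, 227, then 15 to 88, for replating difference thawed minus fresh and 15, then 3 to 5, for DMSO difference thawed minus fresh. Other settings gave 228 with only the compared groups in the fit and 221 with DESeq2 for thawed against fresh with DMSO, 53 with only the compared groups in the fit for transduced against parental progenitors, 117 with all 90 libraries in the fit, 571 with only the compared groups in the fit and 396 with DESeq2 for replating difference thawed minus fresh and 2 with all 90 libraries in the fit, 31 with only the compared groups in the fit and 32 with DESeq2 for DMSO difference thawed minus fresh. RLE moved the share of higher among called genes for the genotypes in thawed cells from 41.6 to 31.3%.

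The replicate letters did not pair samples across groups: the median correlation of deviations from group means was −0.000992 for the same letter and −0.000309 for other letters. With the letter as a replicate block the number of members called stayed as without it in all 18 comparisons, for example 8 for progenitor day 2 against day 0 and 2 for the genotypes in progenitors. Depth limits HULC in progenitors and H19 throughout, where 1 library can hold 0 counts.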
